A study of Homo sapiens with 15 samples.

Results

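CA9, CA12, SLC4A4, SLC4A7, SLC16A1, SLC16A3 and BSG were taken by gene symbol as 7 genes that move acid and lactate out of cells, among 17138 genes measured in either of 2 cell lines. All 7 were measured and tested in MRC5, whose table listed 16382 genes. In H196, whose table listed 16076 genes, 6 were measured and 5 were tested: CA12 was not analysed there, and CA9 was at or under 1 count in every library. Both lines were followed in mono-culture and in indirect co-culture for a week, with the partner cells on a transwell insert, to ask what each cell type does to the other. MRC5, a human lung fibroblast line, was grown alone (MRC5_Mo), with H69, a neuroendocrine (NE) SCLC line (MRC5_CoH69), or with H196, a non-NE SCLC line (MRC5_CoH196). H196 was grown alone (H196_Mo) or with MRC5 (H196_Co). Each group held 3 libraries, 15 in all, of poly(A) RNA. Each line is a single line with no further treatment or genetic change named, and the labels do not say whether the 3 libraries of a group were separate cultures, so p-values measure the spread between these libraries only.

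Cells that run glycolysis produce lactate and protons together and must export both. The monocarboxylate transporters MCT1 (SLC16A1) and MCT4 (SLC16A3) carry lactate with a proton across the plasma membrane, MCT4 mostly outward and MCT1 in either direction, and both need basigin (BSG), a membrane glycoprotein, to reach the cell surface. Carbonic anhydrases IX (CA9) and XII (CA12) are anchored in the membrane with their catalytic side outside the cell, where they interconvert carbon dioxide with bicarbonate and protons. The sodium-bicarbonate cotransporters NBCe1 (SLC4A4) and NBCn1 (SLC4A7) bring that bicarbonate back in to buffer the cytoplasm. CA9 and SLC16A3 are well-known targets of hypoxia-inducible factors (HIFs).

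Library totals ran from 18476890 to 19170560 counts in MRC5 and from 16073597 to 17358349 in H196, so that 3 counts corresponded to 0.156 to 0.187 CPM, counts scaled to a common library total. All 10 fibroblast markers examined, collagens and PDGF receptors among them, had a mean FPKM of at least 1 in every MRC5 group, and 0 of them did in either H196 group. Their summed FPKM was 5936 to 6595 in MRC5_Mo, 6784 to 6955 in MRC5_CoH69 and 3458 to 3628 in MRC5_CoH196. The difference in the sum was mostly that of 3 collagens. From MRC5_Mo to MRC5_CoH196 the mean FPKM of COL1A1 went from 2628 to 785, of COL1A2 from 1974 to 1191 and of COL3A1 from 260 to 54. COL6A3 (820 and 918), PDGFRB (60.7 and 85.5), PDGFRA (42.6 and 48.9) and LUM (86.1 and 94.4) were higher in MRC5_CoH196. THY1 (154 and 131) was lower there, and DCN (202 and 198) and FAP (32.2 and 32) were about level. Of the neuroendocrine markers examined, 3 had a mean FPKM of at least 1 in H196, and NCAM1 was at 0 in all H196_Mo libraries. RNA of H196 was looked for in the MRC5 libraries through 95 genes picked for being high in H196 and near 0 in MRC5_Mo. These markers summed to 8.97 to 9.92 CPM in MRC5_Mo, 8.36 to 10.4 in MRC5_CoH69 and 53.5, 61.8 and 23.7 in MRC5_CoH196, against 7747 to 8033 in H196. Above the MRC5_Mo level, this was 0.559%, 0.664% and 0.182% of the H196 level in MRC5_CoH196 replicates 1, 2 and 3, and 4, 4 and 25 of the 95 markers were at 0. Expression of these genes by the fibroblasts themselves would count in the same way and was not told apart from RNA of H196. The part of such RNA in the small differences below was not tested.

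The promoter sequences of the genes with the largest responses are shown because these genes rose together in MRC5_CoH196. RefSeq windows (GRCh38.p14), from 250 bases before to 50 after an annotated start, were found for 6 of the 7 genes, 16 windows in all, and none was at hand for SLC16A1. Capitals mark the letters ACGTG or GCGTG on either strand, the core of the element that HIFs bind, and the search counts CACGTG, an E-box, on both strands. The CA9 window is chr9:35673678-35673977 on the plus strand and the CA12 window chr15:63381797-63382096 on the minus strand. For SLC16A3, which has 5 windows, the one with ACGTG is given, chr17:82228792-82229091 on the plus strand, and it was picked for these letters.
CA9: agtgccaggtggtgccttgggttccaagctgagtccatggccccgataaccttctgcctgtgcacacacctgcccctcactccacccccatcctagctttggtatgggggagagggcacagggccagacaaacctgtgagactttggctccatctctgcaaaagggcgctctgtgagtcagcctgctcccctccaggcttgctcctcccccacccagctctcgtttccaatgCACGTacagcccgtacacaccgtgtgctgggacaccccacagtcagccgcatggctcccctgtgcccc
CA12: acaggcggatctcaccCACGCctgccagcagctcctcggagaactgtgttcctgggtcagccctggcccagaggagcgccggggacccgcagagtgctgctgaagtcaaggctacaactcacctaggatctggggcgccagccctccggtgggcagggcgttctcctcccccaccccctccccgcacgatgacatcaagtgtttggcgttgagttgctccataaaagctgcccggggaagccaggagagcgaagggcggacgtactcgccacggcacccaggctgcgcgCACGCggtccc
SLC16A3: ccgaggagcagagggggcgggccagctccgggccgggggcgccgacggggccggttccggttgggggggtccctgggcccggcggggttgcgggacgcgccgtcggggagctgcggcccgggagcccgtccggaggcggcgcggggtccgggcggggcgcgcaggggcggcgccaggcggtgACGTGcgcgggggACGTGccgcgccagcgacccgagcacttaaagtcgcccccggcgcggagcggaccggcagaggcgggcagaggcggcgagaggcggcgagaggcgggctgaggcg
ACGTG occurred in CA9, SLC16A3 and BSG, 3 of the 6 genes against 24.9% of all 27305 genes with windows, and in 3 of their 16 windows against 21.4% of all 35116 windows of this length. In CA9 it lay on the minus strand, 14 to 18 bases before the start. In the SLC16A3 window it occurred on the plus strand, with its first base 68 and 55 bases before the start. GCGTG occurred in 5 of the 6 genes, all but CA9, against 40.6% of all genes, and in 7 of the 16 windows against 36.5% of all windows. In CA12 it was found at 2 places, both on the minus strand. SLC16A3 and SLC4A4 had 5 windows each and so had more room for a match. A match describes the letters only.

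The 2 carbonic anhydrases rose in fibroblasts grown with H196, and CA9 by far the more. The CA9 gene (gene ID 768) lies at chr9:35673809-35681159 and CA12 (gene ID 771) at chr15:63318726-63381846 (GRCh38.p13, as for the other genes). The FPKM values of CA9 were 0.13, 0.46 and 0.26 in MRC5_Mo, 0.59, 0.26 and 0.51 in MRC5_CoH69 and 33.61, 30.58 and 37.54 in MRC5_CoH196. The last 3 libraries stood far above the other 6, whose ranges overlapped. In expected counts, CA9 held 3 to 11 per library in MRC5_Mo, 6 to 14 in MRC5_CoH69 and 712 to 905 in MRC5_CoH196. Summed over libraries, these were 20, 32 and 2433 counts, and per total count the level in MRC5_CoH196 was 120-fold that in MRC5_Mo (95% exact interval 77.7 to 197, counting error only). The edgeR quasi-likelihood fit over all genes gave a log2 fold change of 7.06 (SE 0.17, adjusted p = 1.84e-21), which ranked 11 of 12819 genes from the highest. On log2(FPKM + 1) the difference was 4.77 (limma).

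No such rise was detected with H69. Between MRC5_CoH69 and MRC5_Mo the CA9 ratio of summed counts was 1.59 (95% exact interval 0.883 to 2.94), and the log2 fold change of 0.68 (SE 0.46) did not pass the test (edgeR adjusted p = 0.459). With so few counts this value moved to 0.33 without MRC5_Mo replicate 1, to 1.22 without MRC5_Mo replicate 2 and to 0.18 on log2(FPKM + 1), and it passed in none of these. Between the co-cultures, the log2 fold change of CA9 was 6.38 higher with H196 (SE 0.16, adjusted p = 3.28e-21 by edgeR). In H196 itself CA9 had 1 count over all 6 libraries, out of 101696701, and no fold is given for it there.

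CA12 was already present in fibroblasts grown alone, at 5.93, 6 and 5.71 FPKM. It was 4.69, 4.74 and 4.76 in MRC5_CoH69 and 15.42, 16.42 and 17.23 in MRC5_CoH196. The 3 groups did not overlap and lay on both sides of the mono-culture: below it with H69, above it with H196. With H196 the log2 fold change was 1.65 (SE 0.052, 3.14-fold, edgeR adjusted p = 3.21e-19). With H69 CA12 fell by 0.30 on the log2 scale (SE 0.06, edgeR adjusted p = 0.00209), under the limit of 0.58 used to call a gene a DEG. CA12 was thus the one gene of the 7 with an adjusted p under 0.05 in MRC5_CoH69, and its direction was opposite in the other co-culture. Both comparisons share the MRC5_Mo libraries, and the contrast between the co-cultures themselves was 1.95 (SE 0.054, edgeR adjusted p = 2.31e-20).

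The order of the pair changed with these responses. CA9 per CA12, as a ratio of FPKM within a library, was 0.0219, 0.0767 and 0.0455 in MRC5_Mo, 0.126, 0.0549 and 0.107 in MRC5_CoH69 and 2.18, 1.86 and 2.18 in MRC5_CoH196. The exact two-sided permutation test of MRC5_CoH196 against MRC5_Mo gave p = 0.1, the smallest that 3 against 3 libraries allow. Together, the FPKM of CA9 and CA12 summed to 6.16 ± 0.261 (SD, n = 3) in MRC5_Mo, 5.18 ± 0.159 in MRC5_CoH69 and 50.3 ± 4.03 in MRC5_CoH196. CA9 was the lowest of the 7 genes in MRC5_Mo and the third highest in MRC5_CoH196, after BSG and SLC16A3.

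**Figure D1:**
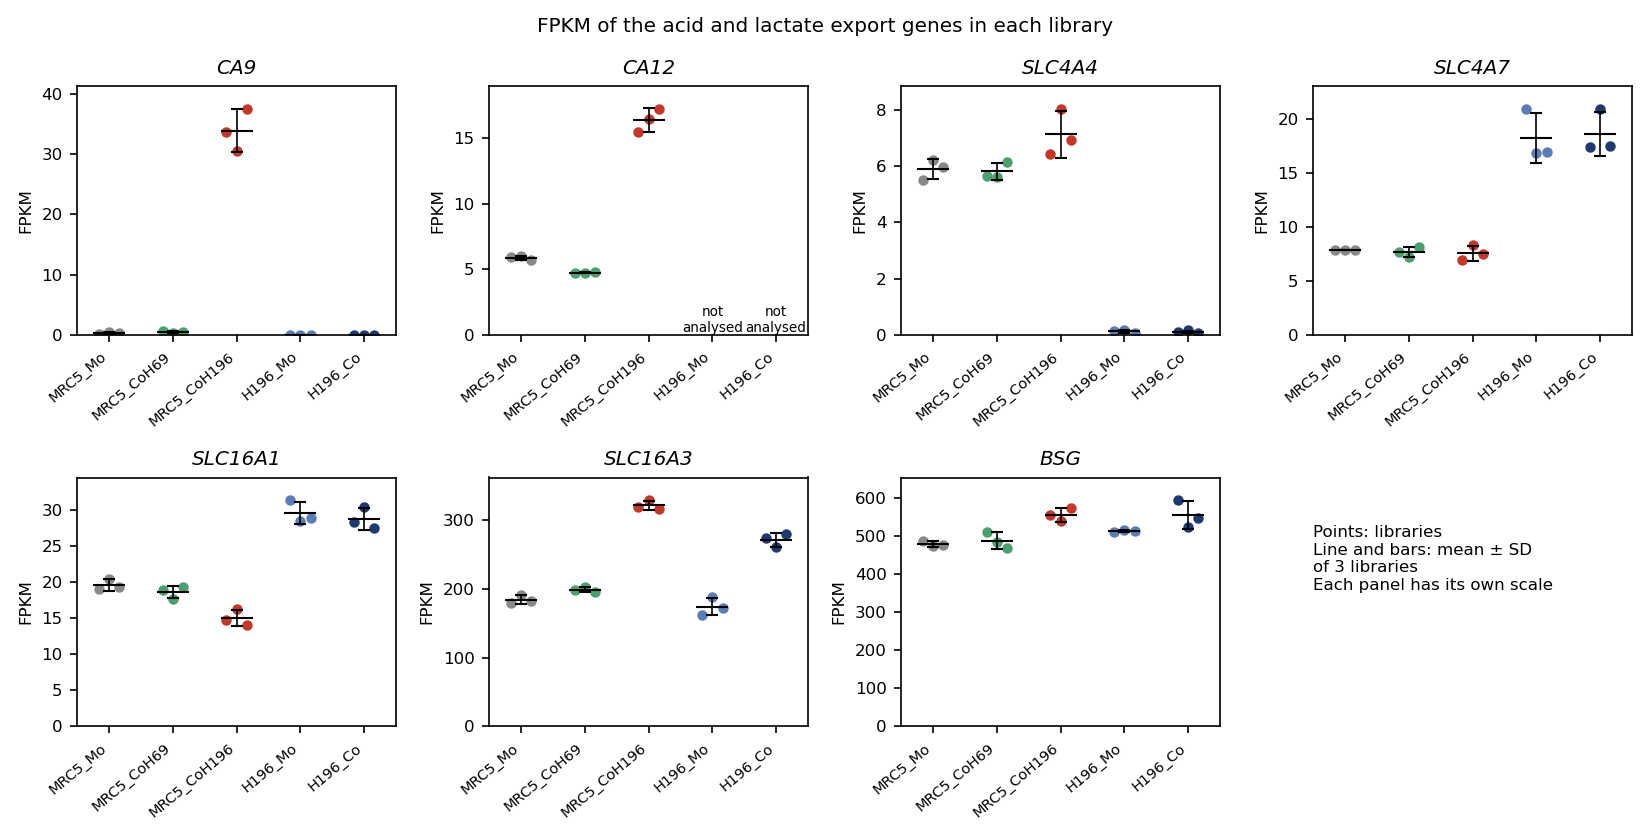
FPKM (y axis, a scale of its own in each panel) of the 7 genes by group (x axis), with 1 point per library and the mean ± SD of 3 libraries in black. CA9, CA12 and SLC16A3 are highest in MRC5_CoH196, SLC16A3 is also higher in H196_Co than in H196_Mo, and SLC4A4 is near 0 in H196.

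The lactate carriers took different courses, and SLC16A3 rose in both partners. SLC16A3 (gene ID 9123, chr17:82217916-82240086) encodes MCT4, the carrier typical of glycolytic cells. Its FPKM was 178.86, 191.18 and 182.76 in MRC5_Mo, 198.22, 201.96 and 194.84 in MRC5_CoH69 and 318.65, 328.79 and 315.77 in MRC5_CoH196. In H196 it was 162.44, 187.51 and 172.11 alone and 274.06, 260.16 and 279.28 in co-culture. Every co-culture library of a line lay above every mono-culture library, by a wide gap with the MRC5 and H196 pair and by a narrow one with H69. The log2 fold change was 0.98 in MRC5_CoH196 (SE 0.041, 1.97-fold, edgeR adjusted p = 9.14e-17) and 0.70 in H196_Co (SE 0.075, 1.62-fold, edgeR adjusted p = 1.36e-06). With H69 it was 0.11 (SE 0.041) and did not pass the test (edgeR adjusted p = 0.0963). The change in MRC5 exceeded that in H196 by 0.25 on the log2 scale (SE 0.08, edgeR adjusted p = 0.00904 for the interaction).

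SLC16A1 (gene ID 6566, listed on more than one contig and so without coordinates here) encodes MCT1 and did not follow SLC16A3. Its FPKM was 19.03, 20.51 and 19.35 in MRC5_Mo, 18.95, 17.75 and 19.30 in MRC5_CoH69 and 14.79, 16.29 and 14.02 in MRC5_CoH196. The MRC5_CoH196 libraries were the lowest, without overlap with the mono-culture. SLC16A1 fell by 0.21 on the log2 scale (SE 0.053, edgeR adjusted p = 0.000853), and by 0.39 when libraries were scaled by their totals alone (adjusted p = 7.16e-07). Against MRC5_CoH69 the log2 difference was -0.15 (SE 0.053, edgeR adjusted p = 0.0125), and -0.31 by library totals (adjusted p = 1.99e-05). The first call was lost without MRC5_CoH196 replicate 3 (-0.11, adjusted p = 0.0971), without MRC5_CoH69 replicate 1 (-0.14, adjusted p = 0.0534) and without MRC5_CoH69 replicate 3 (-0.13, adjusted p = 0.0517). In H196 the values were 31.41, 28.54 and 28.87 FPKM alone and 28.31, 30.47 and 27.58 in co-culture, with overlapping ranges. The log2 fold change there was 0.04 (95% interval -0.10 to 0.17, edgeR adjusted p = 0.755) and -0.04 by library totals, so no direction can be given. The response of MRC5 differed from that of H196 by -0.28 (SE 0.081, edgeR adjusted p = 0.00559). Without MRC5_CoH196 replicate 1 this difference was -0.21 (adjusted p = 0.0523) and without MRC5_CoH196 replicate 3 it was -0.17 (adjusted p = 0.1), so the call rests on these libraries.

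BSG (gene ID 682, chr19:571283-584434), the chaperone of both carriers, was the most abundant of the 7 genes in every group. Its FPKM was 487.03, 472.54 and 474.50 in MRC5_Mo, 510.19, 482.17 and 467.14 in MRC5_CoH69 and 553.14, 537.74 and 572.51 in MRC5_CoH196. It was 509.25, 514.16 and 511.92 in H196_Mo and 593.18, 521.51 and 546.41 in H196_Co. The co-cultures of MRC5 with H196 lay above the mono-cultures in both lines, while MRC5_CoH69 overlapped MRC5_Mo. BSG rose in MRC5_CoH196 by a log2 fold change of 0.39 (SE 0.044, 1.31-fold, edgeR adjusted p = 2.01e-08), and by 0.21 under library totals (adjusted p = 4.26e-05). In H196_Co the log2 fold change was 0.19 (SE 0.073) and missed the threshold (edgeR adjusted p = 0.0675). It passed with DESeq2 (adjusted p = 0.0482), with both lines in 1 fit (adjusted p = 0.00739) and without H196_Co replicate 2 (0.24, adjusted p = 0.0251), while it was 0.12 by library totals (adjusted p = 0.208) and 0.11 on log2(FPKM + 0.1) (adjusted p = 0.273). With H69 it was 0.03 (95% interval -0.05 to 0.12). The response of MRC5 exceeded that of H196 by 0.17 (SE 0.079), which did not pass (edgeR adjusted p = 0.0804) and had adjusted p from 0.0136 to 0.273 over the other settings.

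Taken within each library, the RNA of the 2 lactate carriers shifted towards SLC16A3, and protein was not measured in these libraries. SLC16A3 made up 90.4%, 90.3% and 90.4% of the summed FPKM of both carriers in MRC5_Mo, 91.3%, 91.9% and 91.0% in MRC5_CoH69 and 95.6%, 95.3% and 95.7% in MRC5_CoH196. In H196 the share was 83.8%, 86.8% and 85.6% alone and 90.6%, 89.5% and 91.0% in co-culture. The mean difference from the mono-culture was 5.17 percentage points in MRC5_CoH196 and 4.97 in H196_Co, against 1.03 in MRC5_CoH69, and in each case the groups did not overlap. BSG per carrier FPKM moved the other way, from 2.35 ± 0.114 (SD, n = 3) in MRC5_Mo to 1.65 ± 0.0891 in MRC5_CoH196 and from 2.52 ± 0.126 in H196_Mo to 1.85 ± 0.101 in H196_Co. In MRC5_CoH69 it was 2.24 ± 0.0933 and overlapped the mono-culture. The exact two-sided permutation p was 0.1 for each of the differences without overlap, the smallest possible, and 0.3 for BSG per carrier in MRC5_CoH69, over 21 such ratios compared (no adjusted p could fall below 0.1). These ratios are taken within a library and do not depend on how libraries are scaled.

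**Figure D2:**
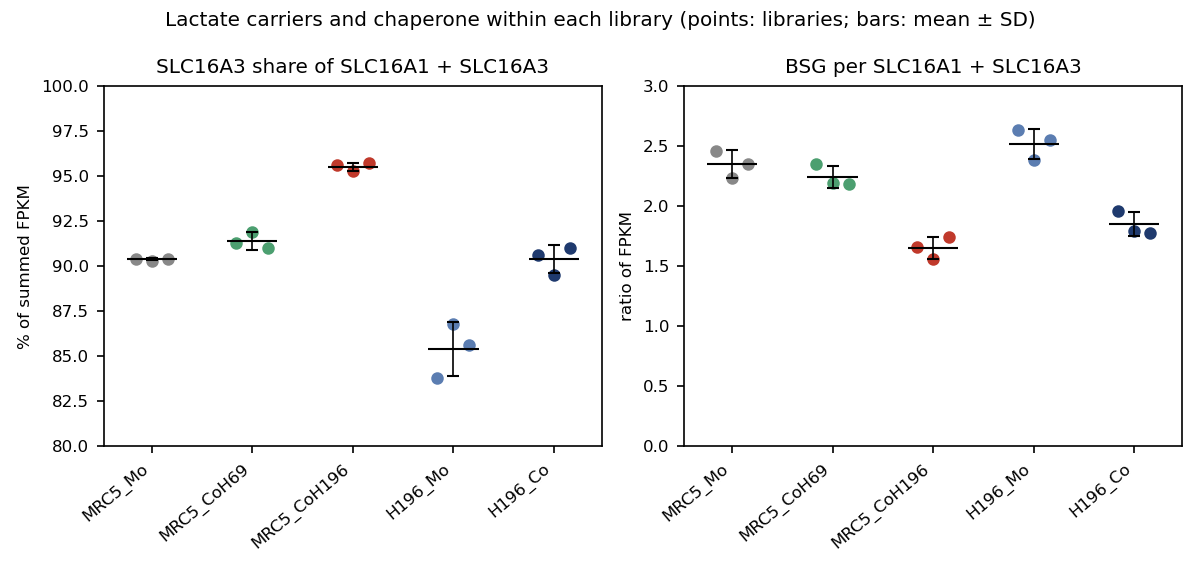
Share of SLC16A3 in the summed FPKM of SLC16A1 and SLC16A3 (left, in %, axis from 80 to 100) and FPKM of BSG per summed carrier FPKM (right) by group, 1 point per library with mean ± SD in black. The share is highest in MRC5_CoH196, at 95.3% to 95.7%, and the BSG ratio is lowest there, at 1.56 to 1.74.

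The bicarbonate carriers moved little. SLC4A4 (gene ID 8671, chr4:71059463-71572083), the electrogenic cotransporter NBCe1, was a fibroblast gene in this pair of lines. Its FPKM was 5.52, 6.23 and 5.97 in MRC5_Mo, 5.66, 5.61 and 6.16 in MRC5_CoH69 and 6.42, 8.04 and 6.92 in MRC5_CoH196. The MRC5_CoH196 libraries lay just above the other 6. SLC4A4 rose there by 0.43 on the log2 scale (SE 0.064, 1.35-fold, edgeR adjusted p = 1.55e-06), by 0.26 under library totals and by 0.23 on log2(FPKM + 1), short of the DEG limit each time. With H69 the log2 fold change was -0.02 (95% interval -0.15 to 0.11). H196 held only 0.13, 0.17 and 0.08 FPKM alone and 0.09, 0.16 and 0.07 in co-culture, 9 to 22 counts per library. At this depth the log2 fold change there, -0.20 (95% interval -0.91 to 0.51, edgeR adjusted p = 0.737), leaves a change of either sign possible.

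SLC4A7 (gene ID 9497, chr3:27369568-27484420), the electroneutral cotransporter NBCn1, was the one gene of the 7 with no call against a mono-culture in any co-culture. Its FPKM was 7.91, 7.85 and 7.90 in MRC5_Mo, 7.66, 7.24 and 8.17 in MRC5_CoH69 and 6.94, 8.32 and 7.52 in MRC5_CoH196. H196 had 20.98, 16.83 and 16.99 alone and 17.40, 20.99 and 17.51 in co-culture. All co-culture ranges overlapped those of the mono-cultures. The log2 fold changes were 0.12 in MRC5_CoH196 (95% interval 0.01 to 0.23, edgeR adjusted p = 0.0528), -0.03 in MRC5_CoH69 (-0.14 to 0.08) and 0.11 in H196_Co (-0.06 to 0.28, edgeR adjusted p = 0.388). The first of these was -0.05 by library totals (adjusted p = 0.422), and it passed at 0.13 with DESeq2 size factors (adjusted p = 0.0458), at 0.13 with a filter of 10 counts in every library (adjusted p = 0.0396) and at 0.18 without MRC5_CoH196 replicate 1 (adjusted p = 0.00854). MRC5_CoH196 against MRC5_CoH69 gave 0.15 (edgeR adjusted p = 0.0177) but -0.01 by library totals (adjusted p = 0.932), and the call was lost without MRC5_CoH196 replicate 2 (0.09, adjusted p = 0.135) and without MRC5_CoH69 replicate 2 (0.11, adjusted p = 0.111), so neither has a direction here. Library totals moved the median of all genes by -0.18 in MRC5_CoH196 against MRC5_Mo and by -0.08 in H196_Co against H196_Mo, which is as large as the smallest changes above. SLC4A7 per SLC4A4, as FPKM within a library, was 1.34 ± 0.0875 (SD, n = 3) in MRC5_Mo, 1.32 ± 0.0315 in MRC5_CoH69 and 1.07 ± 0.0284 in MRC5_CoH196.

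In counts over the 7 genes, 3 were DEGs higher in MRC5_CoH196 than in MRC5_Mo (CA9, CA12 and SLC16A3) and 0 were lower, where 17.2% of all tested genes were higher and 14.7% lower. At an adjusted p under 0.05 alone, 5 were higher and 1 lower, where 37.2% of all genes were higher and 37.1% lower, and DESeq2 also gave 3 DEGs. In MRC5_CoH69 against MRC5_Mo, edgeR and DESeq2 both gave 0 DEGs among the 7, where 0.421% of all genes were higher DEGs and 0.133% lower ones. At an adjusted p alone 0 were higher and 1 lower, where 3.78% and 2.93% of all genes were. An unadjusted p under 0.05 was found for 2, and no share of all genes is given for that cut. MRC5_CoH196 against MRC5_CoH69 gave the same 3 genes as DEGs, all higher, with backgrounds of 15.2% higher and 13.1% lower. In H196_Co against H196_Mo, SLC16A3 was the 1 DEG among the 5 tested, higher, with backgrounds of 3.26% and 0.601% in turn. The median log2 fold change of the genes was 0.43, -0.02, 0.45 and 0.11 in these 4 comparisons, beside -0.00, -0.00, -0.01 and -0.00 over all genes tested. In bulk RNA of a line, a change in how many cells express a gene and a change in its RNA per cell cannot be told apart.

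**Figure D3:**
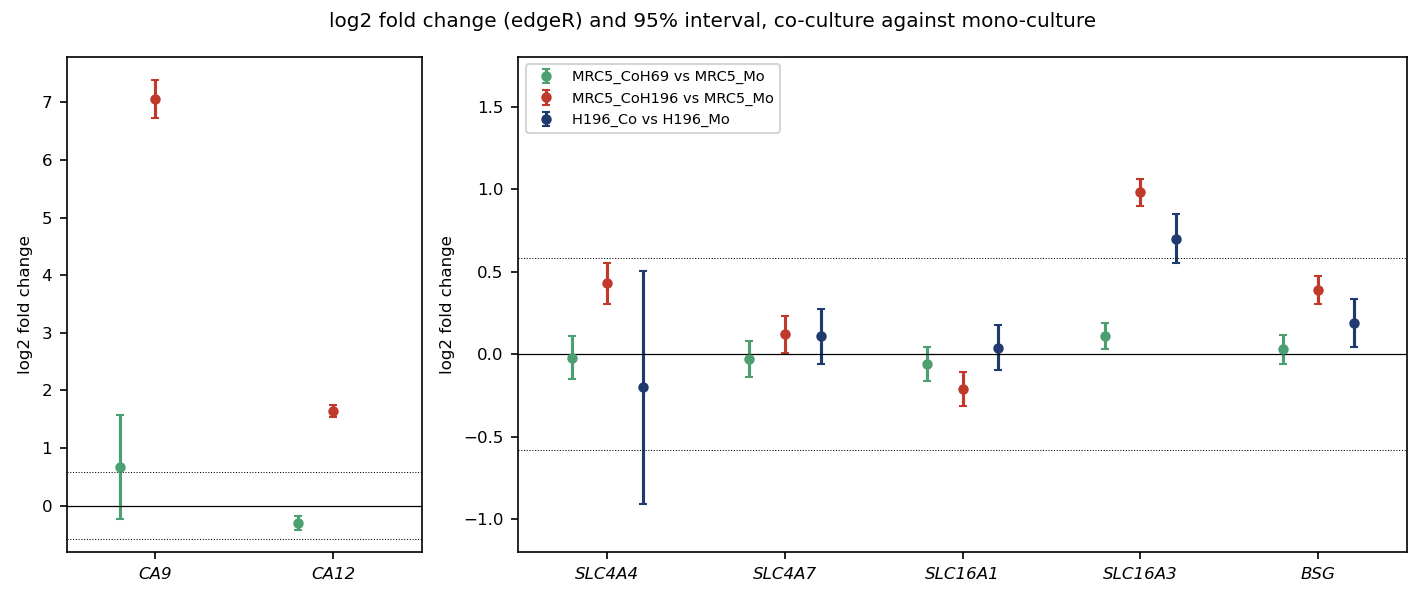
log2 fold change against the mono-culture of the same line (y axis) with 95% intervals (edgeR), for CA9 and CA12 on the left and the other genes on the right, on different scales. Dotted lines mark the DEG limit of 0.58, and the CA9 and CA12 points of MRC5_CoH196, at 7.06 and 1.65, and both SLC16A3 points of the MRC5 and H196 pair, at 0.98 and 0.70, lie above it.

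In mono-culture the 2 DEGs between the lines, of the 5 genes tested in both, were the bicarbonate carriers. The mean FPKM of SLC4A4 was 5.91 ± 0.359 (SD, n = 3) in MRC5_Mo and 0.127 ± 0.0451 in H196_Mo, and that of SLC4A7 was 7.89 ± 0.0321 and 18.3 ± 2.35. A fit of all 15 libraries put SLC4A4 6.02 higher on the log2 scale in MRC5 (SE 0.15, edgeR adjusted p = 2.42e-24) and SLC4A7 0.74 lower, at -0.74 (SE 0.075, edgeR adjusted p = 4.52e-10). By library totals these were 5.59 and -1.16 (adjusted p = 1.45e-22 and 1.91e-13). Of the pair, 1 was higher and 1 lower in MRC5, where 30.2% of all genes were higher in MRC5 and 31.5% lower. Library totals moved the median of all genes by -0.45, and the values of all 5 genes with it. SLC16A1 was lower in MRC5 by either scaling, with log2 differences of -0.15 (edgeR adjusted p = 0.0148) and -0.58 (adjusted p = 1.16e-09), and its first call was lost without MRC5_Mo replicate 1 (-0.13), MRC5_Mo replicate 3 (-0.14) or H196_Mo replicate 1 (-0.12). SLC16A3 was 0.49 higher by TMM (edgeR adjusted p = 5.78e-09) and 0.07 higher by totals (adjusted p = 0.241). BSG was 0.34 higher by TMM and 0.08 lower, at -0.08, by totals (adjusted p = 0.118), so it has no direction. The paper names different culture media for the SCLC lines and for MRC5. The line, its medium and the sequencing table cannot be told apart in this comparison.

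The order of levels was BSG, SLC16A3, SLC16A1 and SLC4A7 in both mono-cultures. In MRC5_Mo, SLC4A4 (5.91 ± 0.359) and CA12 (5.88 ± 0.151) came next and did not differ beyond their spread, and CA9 was last. In MRC5_CoH196 CA9 and CA12 moved ahead of SLC16A1, CA12 (16.4 ± 0.907) and SLC16A1 (15 ± 1.15) lay close to each other, and SLC4A7 (7.59 ± 0.693) and SLC4A4 (7.13 ± 0.83) did not differ beyond their spread. Over the responses, no gene of the 5 tested was a DEG for the difference between MRC5 and H196 (0 by edgeR, 0 by DESeq2). Of all genes, 12.1% were higher DEGs and 12.6% lower ones. At an adjusted p alone 1 was higher and 1 lower, where 51.2% of all genes passed in either direction. An unadjusted p under 0.05 was found for 3, without a share of all genes at that cut.

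The rest of the acid-handling machinery was examined through 7 lists. LDHA, the dehydrogenase subunit that favours lactate formation from pyruvate, had 566 ± 7.97 FPKM (SD, n = 3) in MRC5_Mo, 637 ± 14.6 in MRC5_CoH69 and 1328 ± 29.4 in MRC5_CoH196, and 787 ± 24.7 in H196_Mo and 1234 ± 108 in H196_Co. It rose by 1.40 on the log2 scale in MRC5_CoH196 (SE 0.04, edgeR adjusted p = 3.12e-20) and by 0.73 in H196_Co (SE 0.078, edgeR adjusted p = 1.25e-06), in both lines beside SLC16A3. Of 2 dehydrogenases tested in MRC5_CoH196, LDHA was the 1 DEG, where 17.2% of all genes were higher and 14.7% lower. LDHA was also the 1 DEG of 3 tested in H196_Co, where 3.26% of all genes were higher and 0.601% lower. Of 4 tested monocarboxylate carriers and chaperones, 0 were DEGs in MRC5_CoH196, beside the same 17.2% and 14.7% of all genes (0 by DESeq2, 1 at an unadjusted p under 0.05). In H196_Co, SLC16A6 had 0.947 ± 0.104 FPKM against 0.637 ± 0.0651 and was a DEG by edgeR (0.63, adjusted p = 0.0197), while DESeq2 gave 0 in that list and library totals 0.56.

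Among the other carbonic anhydrases, 3 of 13 were tested in MRC5, and 1 was a higher and 1 a lower DEG in MRC5_CoH196, beside the 17.2% and 14.7% of all genes. CA5B, a mitochondrial form, went from 0.78 ± 0.0854 to 1.08 ± 0.124 FPKM (log2 0.63, edgeR adjusted p = 5.94e-05), and CA13, a cytosolic form, from 0.453 ± 0.0513 to 0.23 ± 0.0557 (log2 -0.81, edgeR adjusted p = 0.00518). By library totals CA5B (0.46) fell short of the DEG limit. Of 5 tested SLC4 relatives, 2 were higher and 1 was lower, against the same 17.2% and 14.7%. The sodium-driven exchanger SLC4A8 fell from 2.91 ± 0.107 to 1.41 ± 0.139 FPKM (log2 -0.98, edgeR adjusted p = 1.34e-09), and the anion exchanger SLC4A3 went from 2.79 ± 0.0624 to 3.53 ± 0.419 (log2 0.59, edgeR adjusted p = 6.39e-06, and 0.41 by library totals). The other DEG was SLC4A5 (2.36, edgeR adjusted p = 1.28e-07). Its mean of 0.993 CPM was below the level set for naming genes, and it is named because the count is small.

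Few proton exchangers and pumps were DEGs. Of 12 tested sodium-proton exchangers and partners, 0 were higher and 1 lower in MRC5_CoH196 at the DEG limit, where 17.2% and 14.7% of all genes were. SLC9A9, an endosomal exchanger, fell from 1.93 ± 0.225 to 0.8 ± 0.265 FPKM (log2 -1.15, edgeR adjusted p = 9.86e-07). At an adjusted p alone 4 were higher and 4 lower, against 37.2% and 37.1% of all genes. Of 21 tested V-ATPase subunits, which acidify organelles, 0 were higher and 2 lower at the DEG limit (14.7% of all genes being lower), and 5 were higher and 9 lower at an adjusted p alone (37.2% and 37.1%). ATP6V0D1 fell from 77.5 ± 1.77 to 41.2 ± 0.82 FPKM (log2 -0.74, edgeR adjusted p = 2.75e-12) and ATP6V0A2 from 5.82 ± 0.403 to 2.54 ± 0.0404 (log2 -0.96, edgeR adjusted p = 3.19e-11). By library totals, 2 exchangers, 4 V-ATPase subunits and 2 SLC4 relatives were lower DEGs and 1 SLC4 relative was a higher one. That scaling moved the median of all genes by -0.18 in MRC5_CoH196 against MRC5_Mo. No share of all genes is given for it, so the added lower calls are not read as particular to these lists. The medians were 0.02 for the exchangers and -0.11 for the V-ATPase, beside -0.00 over all genes. Of 3 tested acid and lactate sensors 0 were DEGs in MRC5_CoH196 by edgeR, against 17.2% and 14.7% of all genes. DESeq2 gave 1, and 2 had an unadjusted p under 0.05. In H196_Co the acid-sensing channel ASIC3 rose from 1.67 ± 0.247 to 2.89 ± 0.338 FPKM (log2 0.86, edgeR adjusted p = 0.000791). In MRC5_CoH69 0 of the 50 tested genes of the 7 lists were DEGs by edgeR or DESeq2, where 0.421% of all genes were higher and 0.133% lower. An unadjusted p under 0.05 was found for 7 of the 50, without a share of all genes at that cut. At an adjusted p alone 3 of the 50 were higher and 1 lower, where 3.78% and 2.93% of all genes were. These were LDHA (0.18, edgeR adjusted p = 0.00486), SLC9A7 (0.19, adjusted p = 0.0283), SLC16A7 (0.27, adjusted p = 0.0443) and SLC4A8 (-0.30, adjusted p = 0.0351). The last 3 are named after their values were seen, and no result about the lists is drawn from such small counts.

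**Figure D4:**
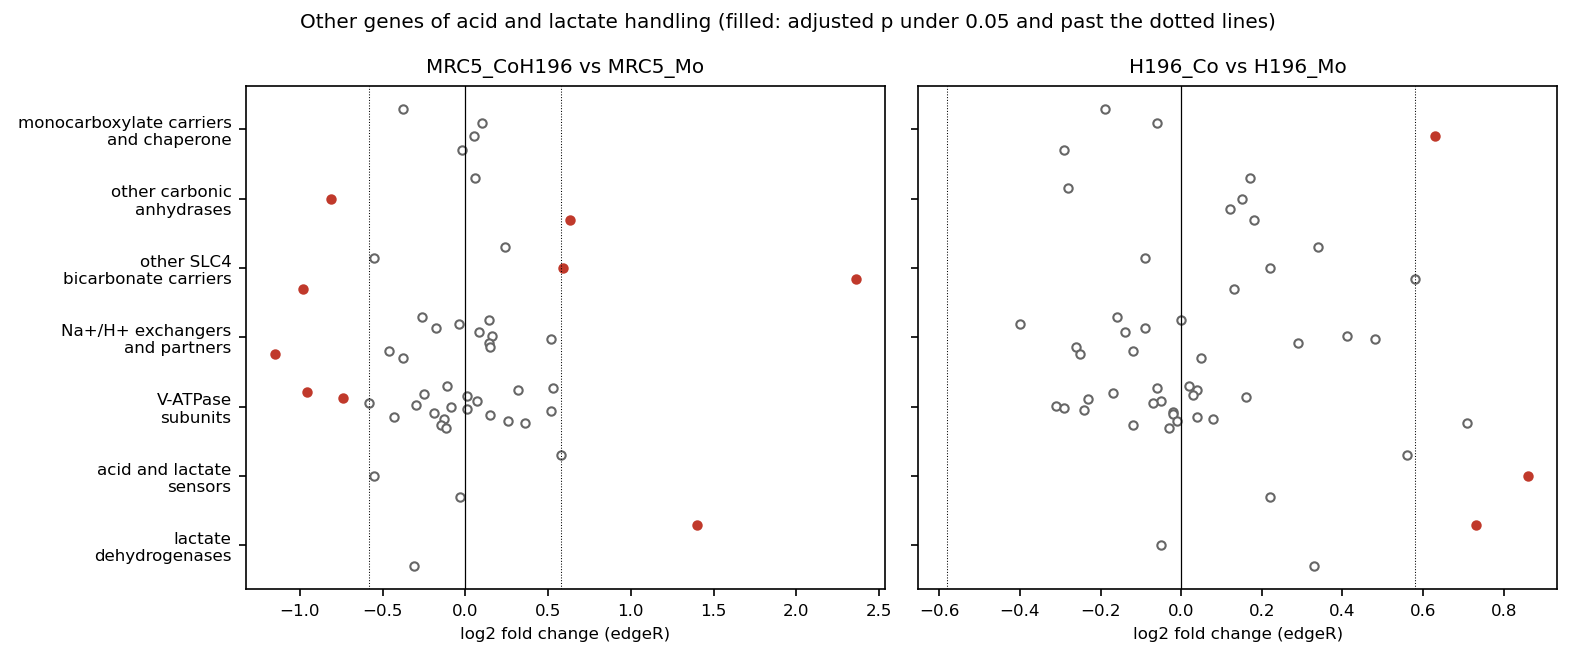
log2 fold change (x axis, edgeR, a scale of its own in each panel) of each tested gene of the 7 lists (rows) in MRC5_CoH196 against MRC5_Mo and in H196_Co against H196_Mo. Filled points are DEGs, with an adjusted p under 0.05 and past the dotted lines, and LDHA, at 1.40 and 0.73, is the filled point of the lowest row in both panels.

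The genes whose profile was most like that of each transporter are given as a description. Over all 15 libraries, as deviations from the mono-culture mean of the line, SLC16A3 was closest to PGAM1, a glycolytic mutase (Pearson r = 0.994), and KCTD11 (0.992). SLC16A1 was closest to FANCD2 (0.961) and GLRX3 (0.951), and BSG to PHC2 (0.979) and DPP7 (0.972). SLC4A4 was closest to ZNF333 (0.911) and SPOCK1 (0.875), and SLC4A7, which hardly moved, to TMEM65 (0.858) and CUL4B (0.844). Over the 9 MRC5 libraries alone, a rule added once the tables had been seen, CA9 was closest to FNBP1L (0.997) and SMS (0.996), and CA12 to GLRX (0.998) and TCEA1 (0.997). These libraries share groups, so any gene that separates MRC5_CoH196 from the other groups reaches a high r. The deposited annotation placed CA12 in the Hallmark sets for hypoxia and for early and late estrogen response, SLC16A1 in both estrogen response sets, SLC16A3 in that for glycolysis, SLC4A4 in that for inflammatory response and BSG in those for heme metabolism and UV response. It placed CA9 and SLC4A7 in none.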

How the data were processed

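RNA of MRC5 and H196 cells was measured in 15 libraries, 3 per group. The authors cleaned the reads with SOAPnuke; the submitters' processing notes name HISAT, HISAT2 2.1.0, Bowtie2 2.3.4.3, RSEM 1.3.1 and GRCh38.p13. The deposited unit of abundance is the expected count per gene, left without normalization by the authors; 93.7% in MRC5 and 92.1% in H196 are whole numbers. Levels are given here as the authors' FPKM, which allow for gene length and sequencing depth. The authors' DESeq2 columns (log2 fold change, p-value and q-value) and 30 columns of TPM and normalized counts (18 for MRC5, 12 for H196) were not used. The genome build of the reference at hand is another GRCh38 release, so gene coordinates are those of the files and promoter windows those of RefSeq.

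Expected counts were rounded and analysed with edgeR 4.0.16 in R 4.3.3 (TMM, filterByExpr, quasi-likelihood, two-sided, Benjamini-Hochberg over all genes tested: 12819 in MRC5, 12806 in H196, 13584 in a fit of both lines). CA9 was part of the fit of both lines, but its values there were dropped afterwards and it is not counted in the 13584. CPM are TMM-scaled, apart from those of H196 markers. DEGs passed an adjusted p of 0.05 and changed by more than 0.58 in either direction (log2). Standard errors are the log2 fold change over the square root of F. Alternatives were DESeq2 1.42.0 and its size factors, limma 3.58.1 on log2 FPKM with a pseudocount of 1 or 0.1, stricter or no filters, other fold limits, the replicate block, only the groups compared, each library left out and, added after the data were seen, library totals without TMM. The code was tested on simulated data.

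The 7 genes and all lists were chosen with earlier results of these data known. All 7 are named, and from each list at most the 2 DEGs with the largest change each way and a mean of at least 1 CPM. H196 RNA was looked for through genes that reached 20 CPM in all libraries of that line while staying below 0.5 CPM in MRC5_Mo. Likeness was Pearson's r of log2 CPM (prior count 2) among genes of at least 10 CPM. Depth gives a floor of 3 counts, and counting intervals cover counting error only. H69 cells were not analysed here.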

Additional observations from a re-analysis of the deposited data

Results flagged for a closer look

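The response of 2 genes to co-culture differed between the partners by the interaction term of the fit over all 15 libraries (edgeR). For SLC16A3 the log2 response of MRC5 minus that of H196 was 0.25 (SE 0.08, adjusted p = 0.00904), between 0.18 and 0.30 over the other settings and between 0.19 and 0.32 with each library left out. For SLC16A1 it was -0.28 (SE 0.081, adjusted p = 0.00559), between -0.35 and -0.23 over the other settings and between -0.31 and -0.17 with each library left out, where 2 of 12 such fits lost the call.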

How the results depend on the processing

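Depth was about equal over libraries, and the limits are the 3 libraries per group, the low counts of CA9 in MRC5_Mo and of SLC4A4 in H196, and the scaling, above all between the mono-cultures of the lines. Of 524 refits of a log2 fold change of the 7 genes, 477 kept direction and side of the threshold, 11 lost and 13 gained the call, and 23 turned direction, none of them for CA9, CA12 or SLC16A3. The cause was not tested.

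Without a fold limit the DEGs among the 7 genes were 6 for MRC5_CoH196 against MRC5_Mo (74.3% of all genes), 1 for MRC5_CoH69 against MRC5_Mo (6.7%), 7 for MRC5_CoH196 against MRC5_CoH69 (72.3%), 5 of 5 for MRC5_Mo against H196_Mo (86.6%) and 2 for the difference of responses (51.2%). With a limit of 1 they were 2 for MRC5_CoH196 against MRC5_Mo (12.2% of all genes) and 2 against MRC5_CoH69 (10.6%). SLC16A3 (0.98 and 0.87) falls short in both. At this limit 0 were DEGs for H196_Co against H196_Mo (1.15%) and 1 for MRC5_Mo against H196_Mo (43.6%). A filter of 10 counts in every library drops CA9 in MRC5 and SLC4A4 between the mono-cultures of the lines. It left 2 for both comparisons of MRC5_CoH196 and 1 for MRC5_Mo against H196_Mo. No share of all genes is given for that filter. Leaving out each library gave 3, 0, 3, 1 and 2 DEGs throughout in the first 5 comparisons and 0 to 1 for the difference of responses, where SLC4A4 reached 1.05 (adjusted p = 0.0304) without H196_Co replicate 2.

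SLC4A7 in MRC5_CoH196 against MRC5_Mo was -0.05 by library totals, -0.05 on log2(FPKM + 1) and -0.06 on log2(FPKM + 0.1), and against MRC5_CoH69 it was -0.01, -0.02 and -0.02 in turn. SLC16A1 in H196_Co was -0.04 in all 3, and BSG in MRC5_Mo against H196_Mo was -0.08 by library totals, against 0.34 (adjusted p = 2.83e-06). For the difference of responses SLC4A7 was 0.03 with DESeq2 size factors, 0.03 with DESeq2 and 0.02 with the filter of 10 counts, and ranged from -0.10 to 0.09 with each library left out. With a library left out, MRC5_CoH69 against MRC5_Mo ranged from -0.01 to 0.06 for BSG, from -0.07 to 0.02 for SLC4A4 (0.00 without MRC5_CoH69 replicate 2) and from -0.07 to 0.01 for SLC4A7, and SLC4A4 in H196_Co from -0.65 to 0.11. Of 190 refitted counts of DEGs over the lists, 49 moved by more than 1.5 times.

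Same-numbered libraries of a line correlated between -0.151 and 0.081 in their deviations from the group means, and 2 of 12 correlated best with their own number. No pairing by number was seen, but 3 libraries per group cannot exclude it. MRC5_CoH196 was not compared with H196_Co in this way. With the replicate block the DEGs among the 7 genes were 3, 0, 3, 1, 2 and 0 in the 6 comparisons, as without it.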
